A study of Mus musculus with 12 samples.

Results

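Sorted CD11b-negative leukaemia cells of mice given a STAT3 decoy were compared with the leukaemia cells of control mice by reduced representation bisulfite sequencing, which reads the methylation of cytosines at CpG sites in restriction fragments. The comparison used all 4 CD11b-negative libraries and all 4 PBS libraries, 8 of the 12 libraries of the series. Calls on both strands were added up, and 1057068 of the autosomal CpGs had 10 or more calls in all 8 libraries. These common CpGs filled 85514 tiles of 1000 bp with at least 3 such CpGs, with a median of 6 CpGs and 684 calls per tile. All of them came from CMM cells, mouse leukaemia cells that model human inv(16) acute myeloid leukaemia and carry GFP, transplanted into C57BL/6 mice through a vein. Injections into a vein began once GFP-positive cells reached about 1% in blood, and each mouse had 3 of them, on alternate days. Control mice received PBS. Treated mice received CpG-STAT3dODN, in which a decoy for STAT3 is linked to a CpG oligonucleotide. The spleen was harvested 1 day later. From PBS mice all GFP-positive cells were sorted, with no CD11b gate, and from treated mice those that were GFP-positive and CD11b-negative. Treatment and the removal of CD11b-positive cells therefore cannot be told apart in this comparison. Neither can a change within cells and a change in the mixture of cells in a sorted sample. Whether each library stands for its own animal is not stated in the labels. The p-values therefore cover the spread between libraries, which may be technical. Differences of methylation are given in percentage points, as CD11b-negative minus PBS.

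Cytosine methylation at CpG sites is set by the de novo enzymes Dnmt3a and Dnmt3b and copied at replication by Dnmt1. CpG-dense gene starts are mostly unmethylated in normal cells, most other CpGs are methylated, and leukaemia cells often carry partial methylation at both. The inv(16) rearrangement joins Cbfb to Myh11 and blocks myeloid differentiation. CpG oligonucleotides are ligands of Tlr9, the decoy binds the transcription factor Stat3, and CD11b, the product of Itgam, is a surface integrin of maturing myeloid cells. Itgam itself had no common CpGs in a tile or gene window, so the sort could not be checked at its own gene, and methylation gives no expression markers of the cell type.

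The promoters printed here carry the patterns described further on. They were chosen after their values were seen, run from 250 bases before to 50 after the annotated start, and come from RefSeq (GRCm38.p6, the same build as mm10). Each is written on the strand of its gene, 5′ to 3′, and capitals mark the CpGs measured in all 8 libraries. Slc22a3, an organic cation transporter gene (chr17:12507655-12507954, minus strand), Epor, the erythropoietin receptor gene (chr9:21963527-21963826, minus strand), and Rhd, a gene of the Rh blood group (chr4:134864286-134864585, plus strand), show higher methylation in the CD11b-negative than in the PBS libraries. This is not particular to them. The CD11b-positive libraries of treated mice, outside this comparison, had 25.1% to 53.6% in Slc22a3, 29.8% to 48.1% in Epor and 48.4% to 77.2% in Rhd. Col1a2, a collagen gene (chr6:4505368-4505667, plus strand), was lower in CD11b-negative than in PBS. Otud7a, a deubiquitinase gene (chr7:63444522-63444821, plus strand), and Pdzrn3, a ubiquitin ligase gene (chr6:101377848-101378147, minus strand), separate a single library from the other 7. Irf8, a transcription factor gene of myeloid differentiation (chr8:120736108-120736407, plus strand), did not separate the groups.
Slc22a3: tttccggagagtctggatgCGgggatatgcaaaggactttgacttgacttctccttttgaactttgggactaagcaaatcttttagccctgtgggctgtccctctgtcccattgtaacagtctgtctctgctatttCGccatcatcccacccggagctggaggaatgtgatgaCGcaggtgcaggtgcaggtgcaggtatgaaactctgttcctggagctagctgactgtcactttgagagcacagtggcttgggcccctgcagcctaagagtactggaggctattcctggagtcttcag
Epor: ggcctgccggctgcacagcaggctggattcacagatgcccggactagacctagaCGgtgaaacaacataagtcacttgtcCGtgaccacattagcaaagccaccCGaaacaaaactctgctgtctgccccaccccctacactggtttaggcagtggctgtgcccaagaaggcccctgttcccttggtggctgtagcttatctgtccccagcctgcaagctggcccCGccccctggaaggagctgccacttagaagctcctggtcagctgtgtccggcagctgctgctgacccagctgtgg
Rhd: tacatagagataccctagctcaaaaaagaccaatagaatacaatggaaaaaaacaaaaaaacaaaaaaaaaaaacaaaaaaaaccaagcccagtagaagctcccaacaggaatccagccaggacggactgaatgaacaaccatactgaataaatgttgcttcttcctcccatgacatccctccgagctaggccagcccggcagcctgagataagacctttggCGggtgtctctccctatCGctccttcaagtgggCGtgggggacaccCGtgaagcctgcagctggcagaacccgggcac
Col1a2: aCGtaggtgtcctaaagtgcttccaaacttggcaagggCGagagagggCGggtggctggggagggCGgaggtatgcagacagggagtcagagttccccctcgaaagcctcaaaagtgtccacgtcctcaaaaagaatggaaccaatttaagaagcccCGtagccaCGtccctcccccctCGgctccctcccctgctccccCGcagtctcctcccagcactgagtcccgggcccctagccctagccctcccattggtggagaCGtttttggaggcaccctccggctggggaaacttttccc
Otud7a: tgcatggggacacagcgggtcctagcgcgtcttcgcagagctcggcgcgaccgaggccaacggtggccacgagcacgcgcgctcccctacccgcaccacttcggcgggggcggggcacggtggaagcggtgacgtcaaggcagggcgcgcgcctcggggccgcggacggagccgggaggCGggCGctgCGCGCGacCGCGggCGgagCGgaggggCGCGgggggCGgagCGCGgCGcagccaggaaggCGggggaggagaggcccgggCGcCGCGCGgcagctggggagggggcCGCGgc
Pdzrn3: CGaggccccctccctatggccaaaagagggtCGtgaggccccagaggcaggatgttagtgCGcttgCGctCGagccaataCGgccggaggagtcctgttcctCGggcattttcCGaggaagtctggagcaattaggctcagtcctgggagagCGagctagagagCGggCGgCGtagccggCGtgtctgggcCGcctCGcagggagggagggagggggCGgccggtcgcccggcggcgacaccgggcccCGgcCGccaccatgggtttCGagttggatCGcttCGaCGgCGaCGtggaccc
Irf8: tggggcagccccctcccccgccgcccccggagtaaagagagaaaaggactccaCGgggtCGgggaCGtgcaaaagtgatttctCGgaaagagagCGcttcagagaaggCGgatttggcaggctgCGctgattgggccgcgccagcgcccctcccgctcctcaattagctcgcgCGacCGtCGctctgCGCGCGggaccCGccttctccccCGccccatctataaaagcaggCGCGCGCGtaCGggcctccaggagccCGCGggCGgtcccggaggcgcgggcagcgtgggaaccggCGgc

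The library labelled CD11b-negative 2 stood apart from the other 7, and it resembled a library of the CD11b-positive group, which was sorted from treated mice as well. Across 85491 tiles with calls in all 12 libraries, it differed from CD11b-positive 2 by a median of 1.31 points of methylation (Pearson r = 0.996 across tiles, which share library and depth). It differed from the other CD11b-negative libraries by a median of 6.32 to 7.82 points and from the PBS libraries by 7.88 to 9.48. The mean chi-square of the counts per tile was 2.29 between CD11b-negative 2 and CD11b-positive 2. That is close to the value between PBS 3 and PBS 4 (2.30), where sampling noise alone gives about 1, and it was 53.2 between CD11b-negative 2 and CD11b-negative 1. CD11b-negative 2 had the fewest calls, 112671408 against 130087192 to 157223205, but listed the most CpGs, 6514712 against 2832050 to 3809207. Genes on the Y chromosome took 40.2 calls per 1000000 autosomal calls in it and 5.52 to 18.6 in the other 7. CD11b-positive 2 was alike in listed CpGs (6839766) and in calls on Y genes (41.3 per 1000000). Its total of 133623666 calls was not low. The other CD11b-positive libraries listed fewer CpGs than CD11b-positive 2 and had fewer calls on Y genes, though each had over 18.6 per 1000000. The part of these properties in the results was not tested. Whether the label of CD11b-negative 2 is right cannot be told from these data. A swapped or mixed sample would change what each value over 8 libraries means. The main results are therefore given with and without this library, always under its label.

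With each CpG counted alike, the CD11b-negative libraries carried slightly more methylation than the PBS libraries. Each of the 4 then lay above each PBS library. Mean methylation over the common CpGs was 30.2%, 30.8%, 30.8% and 30.5% in PBS 1 to 4, and 31.7%, 34.8%, 31.6% and 31.3% in CD11b-negative 1 to 4. The groups did not overlap, and CD11b-negative 2 was the highest. The means were 30.6% ± 0.285 in PBS and 32.3% ± 1.67 in CD11b-negative (SD, n = 4 each), which puts the second 1.77 points higher (exact permutation, two-sided, p = 0.0286, the lowest value that 70 assignments can give). Without CD11b-negative 2 the mean was 31.5% ± 0.248 (SD, n = 3), 0.938 points above PBS, with exact permutation p = 0.0571, the lowest that 35 assignments can give. Averaged over tiles instead, which gives more weight to CpG-poor DNA, methylation was 48.3% ± 0.910 in PBS and 52.2% ± 4.47 in CD11b-negative (SD, n = 4 each). That difference of 3.82 points had exact permutation p = 0.0571, and 1.61 points remained without CD11b-negative 2 (exact permutation p = 0.114). In tiles PBS 2 reached 49.4%, above CD11b-negative 4 at 49.2%. The CD11b-positive libraries had tile means of 54.5% to 59.5%, over the 85491 tiles with calls in every library of the series. Weighted by calls, the CpG difference was 0.541 points (exact permutation p = 0.800). It was -1.19 points without CD11b-negative 2 (exact permutation p = 0.514), so without that library the direction depended on the weighting. Weighted in this way, CD11b-negative 1 and 4 (31.3% and 32.1%) lay below each PBS library (32.5% to 36.6%). CD11b-negative 3 (35.6%) lay within the PBS range and CD11b-negative 2 (39.9%) above it.

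Fewer tiles were partly methylated and more were highly methylated in the CD11b-negative libraries. Tiles between 20% and 80% made up 44.2%, 44.2%, 44.6% and 45.1% of tiles in PBS 1 to 4. They made up 40.8%, 16.5%, 43.5% and 42.8% in CD11b-negative 1 to 4, lower in each library than in any PBS library. The mean difference was -8.62 points of share (exact permutation p = 0.0286, adjusted over the 3 ranges 0.0429), and -2.17 without CD11b-negative 2 (exact permutation p = 0.0571, adjusted p = 0.0857). Tiles over 80% made up 24.2%, 25.9%, 25.05% and 24.6% in PBS and 29.6%, 53.0%, 27.1% and 26.9% in CD11b-negative, again without overlap. Their share rose by 9.22 points (exact permutation p = 0.0286, adjusted p = 0.0429), and it was 2.93 points higher without CD11b-negative 2 (adjusted p = 0.0857). The share of tiles under 20% differed by -0.598 points (exact permutation p = 0.229). Of the 38416 tiles whose PBS mean was 20% to 80%, 63.9% were over 80% in CD11b-negative 2 and 7.03% were under 20%. In the other CD11b-negative libraries 12.8%, 6.41% and 6.96% of them were over 80%. The PBS libraries chose these tiles and are no comparison for these shares.

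**Figure D1:**
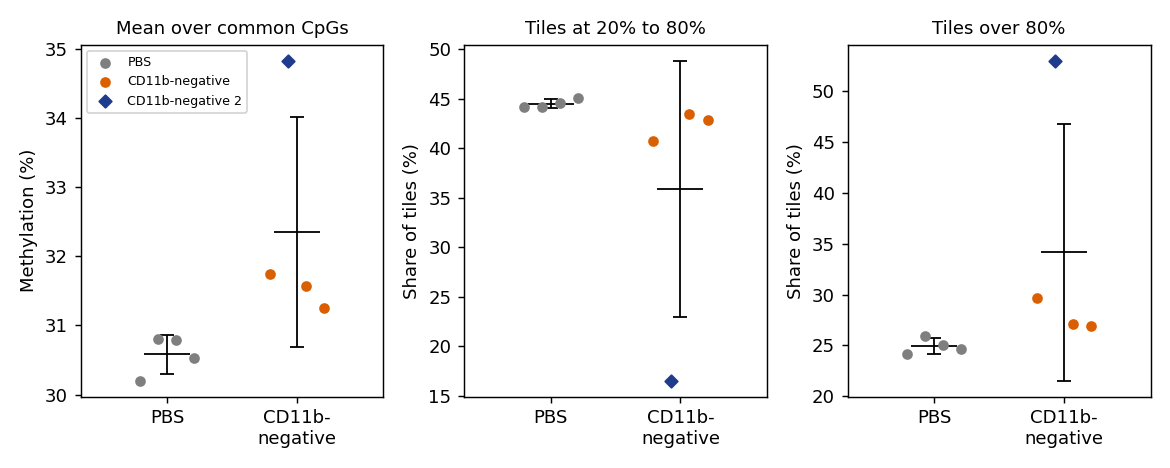
Mean methylation over the common CpGs (left, %), the share of tiles at 20% to 80% (middle, %) and the share of tiles over 80% (right, %), with 1 point per library and black bars for the mean ± SD of 4 libraries; the y axes do not start at 0. CD11b-negative 2 (diamond) lies at 34.8%, 16.5% and 53.0%, far from the other 3 CD11b-negative libraries, which also lie outside the PBS points.

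The size of the difference varied with the PBS level of the tile. The same PBS libraries set the bins and were subtracted, and the scale has a floor and a ceiling. Both can shape these medians, so they are a description. In tiles with a PBS mean of 40% to 50% (5187 tiles) the median difference from the PBS mean was 6.05 points in CD11b-negative 1, 34.3 in CD11b-negative 2, 2.69 in CD11b-negative 3 and 0.940 in CD11b-negative 4. In the 21902 tiles under 10% the same medians were 0.0371, 0.0852, 0.0811 and 0.0318 points. CD11b-negative 4 had its highest median, 1.53 points, at 70% to 80%. Tiles at 80% to 90% in PBS were higher as well, by a median of 1.61 points without CD11b-negative 2 and by 6.73 in that library. Counting tiles at least 10 points above the PBS mean gave 8081, 35340, 1113 and 1738 tiles in CD11b-negative 1 to 4, and 1638, 4562, 129 and 1093 tiles at least 10 points below it. With each tile counted alike, the 4 libraries thus shared a direction in these medians, and CD11b-negative 2 had by far the largest shift.

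**Figure D2:**
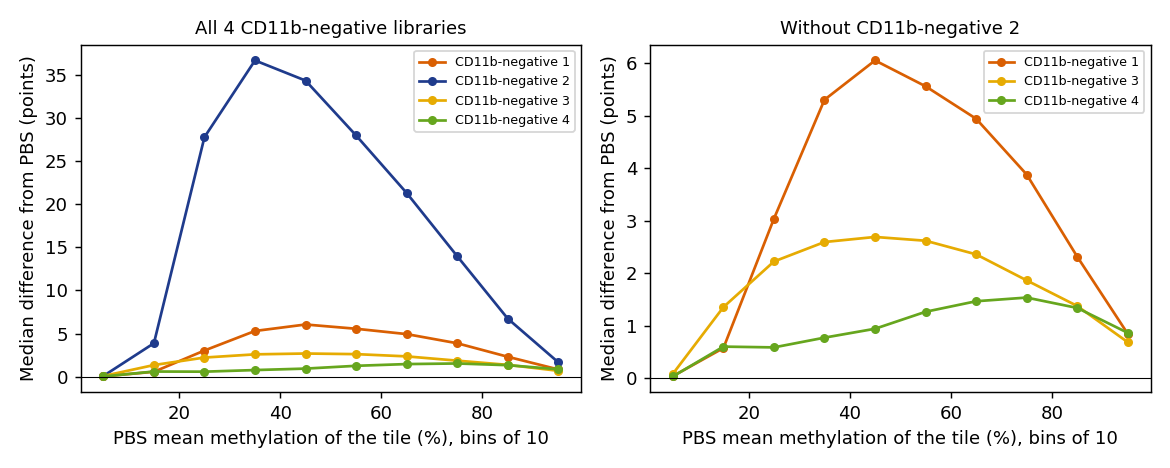
Median difference of each CD11b-negative library from the PBS mean (points, y axis) over tiles in bins of 10% of PBS mean methylation (x axis), with all 4 libraries on the left and without CD11b-negative 2 on the right. CD11b-negative 2 peaks at 36.7 points in the 30% to 40% bin, while CD11b-negative 1 peaks at 6.05 and the other 2 stay under 3 points.

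By place in the genome, the difference was largest in CpG-poor DNA away from gene starts. Tiles were split by place and by the number of CpGs listed in them. Outside genes, tiles with under 20 CpGs averaged 59.9%, 63.6%, 61.7% and 61.7% in PBS and 66.2%, 79.0%, 64.1% and 63.2% in CD11b-negative, a difference of 6.38 points (2.77 without CD11b-negative 2). Only CD11b-negative 4 fell below the highest PBS library. The corresponding tiles in the rest of genes differed by 5.77 points (2.12 without it). Outside genes at 20 to 49 CpGs the groups did not overlap, with 3.06 points (1.59 without it; exact permutation p = 0.0286, adjusted p = 0.154). At gene starts with 50 or more CpGs, PBS averaged 6.33%, 4.97%, 6.17% and 5.65%, and CD11b-negative 5.22%, 2.37%, 6.07% and 6.12%. There CD11b-negative 2 was the lowest of the 8 libraries, and the other 3 lay within the PBS range. None of the 9 classes passed after adjustment over them (lowest adjusted p = 0.154).

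**Figure D3:**
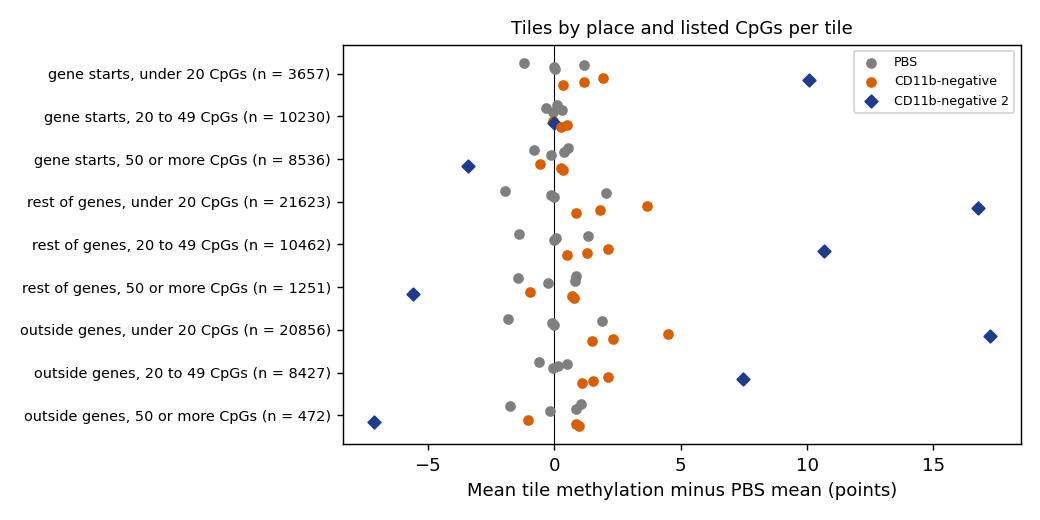
Mean tile methylation of each library minus the PBS mean (points, x axis) for 9 classes of tiles by place and by listed CpGs (y axis, number of tiles in brackets), with grey points for PBS, orange points for CD11b-negative and a diamond for CD11b-negative 2. The diamond lies far to the right in CpG-poor DNA outside genes (79.0% against a PBS mean of 61.7%) and left of 0 at the densest gene starts (2.37% against 5.78%).

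The higher mean was spread along the genome. All 19 autosomes had a higher mean in the CD11b-negative group, by 3.20 to 4.28 points, or 1.32 to 1.84 without CD11b-negative 2. Exact permutation adjusted over the autosomes gave p = 0.0639 for 17 of them and 0.0857 for chromosomes 11 and 19. Of 252 stretches of 10 Mb with at least 50 tiles, 252 had a higher mean in CD11b-negative when CD11b-negative 2 was left out. With all 8 libraries, 123 of them were higher without overlap of the groups and 0 were lower without overlap. Without CD11b-negative 2 the difference of a stretch ranged from 0.844 to 2.72 points, with a median of 1.69.

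At single tiles the groups separated mostly upward, but no tile passed the test with all 8 libraries. Each tile was tested with a quasi-binomial model of its methylated and unmethylated counts, and a call needed a Benjamini-Hochberg adjusted p under 0.05 and a difference of at least 10 points. Of 85514 tiles 0 were called (0%, lowest adjusted p = 0.479), while 8638 tiles (10.1%) had an unadjusted p under 0.05. Of these 8244 were higher and 394 lower in CD11b-negative. edgeR's quasi-likelihood test gave 0 tiles with an adjusted p under 0.05 and 5731 with an unadjusted p under 0.05, and limma gave 0 and 6428. In 8727 tiles (10.2%) each CD11b-negative library was above each PBS library, and in 337 (0.394%) each was below. Without CD11b-negative 2 the counts were 9853 (11.5%) and 838 (0.98%). Of the higher tiles 50.4% lay outside genes, against 34.8% of all tiles, and of the lower ones 43.9% lay at gene starts, against 26.2% of all tiles. With a further model term for each library's Y-gene calls, 113 of the 85514 tiles were called with 8 libraries (112 higher and 1 lower). Without CD11b-negative 2 the count was 130 (127 and 3), and 91 tiles were in both sets. The 10 points were here those of the fitted model, not of the group means. Among the 8 libraries CD11b-negative 2 had by far the highest Y share, 40.2 calls per 1000000. Over 8 libraries the term thus largely marks that library. Of the 113, 97 did not overlap between the groups. Within PBS the Y share was lowest in PBS 1 (5.52 calls per 1000000), which had the lowest tile mean, and highest in PBS 2 (18.6), which had the highest. What the Y share stands for was not tested.

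The higher tiles with the widest gaps between the groups, 11 of which are described, went from low or middle levels in PBS to clearly higher ones. In the tile at chr1:69545001-69546000, in Ikzf2, which encodes the lymphoid zinc-finger protein Helios, methylation was 3.05%, 10.9%, 8.68% and 9.42% in PBS and 38.2%, 72.9%, 22.6% and 23.2% in CD11b-negative. Each CD11b-negative library was well above the highest PBS library, and CD11b-negative 2 was above the rest. In the tile at chr8:122322001-122323000, in Zfpm1, the gene of a cofactor of Gata1, the values were 3.61%, 7.57%, 6.25% and 4.75% in PBS and 24.7%, 72.6%, 29.3% and 18.3% in CD11b-negative. A tile 4574 bp from Cx3cl1, a chemokine gene (chr8:94787001-94788000), had 21.3%, 18.9%, 21% and 22.8% in PBS and 52.4%, 69.1%, 38.3% and 33.6% in CD11b-negative. In both tiles CD11b-negative 2 was the highest library and each CD11b-negative library lay clear of PBS. Near Galnt7, an O-glycosylation gene (chr8:57520001-57521000), the values were 48.9%, 52.0%, 46.2% and 43.8% against 78.8%, 80.1%, 64.9% and 68.1%. Here CD11b-negative 1 was close to CD11b-negative 2. The other 7 lay in or near Brinp2, Tmem63b, Pcnx, Ndst1, Ccdc102a, Cnnm2 and Pdzph1, and the 11 tiles differed by 18.9 to 31.2 points, or 13.6 to 26.6 without CD11b-negative 2. The 26.6 points were near Ccdc102a, on as few as 40 calls in a library, and CD11b-negative 4 was the highest there (45.8%). The tiles in or near Brinp2, Pcnx and Cnnm2 rested on as few as 60, 75 and 95 calls. All 11 had an adjusted p of 0.479 over the 8 libraries.

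**Figure D4:**
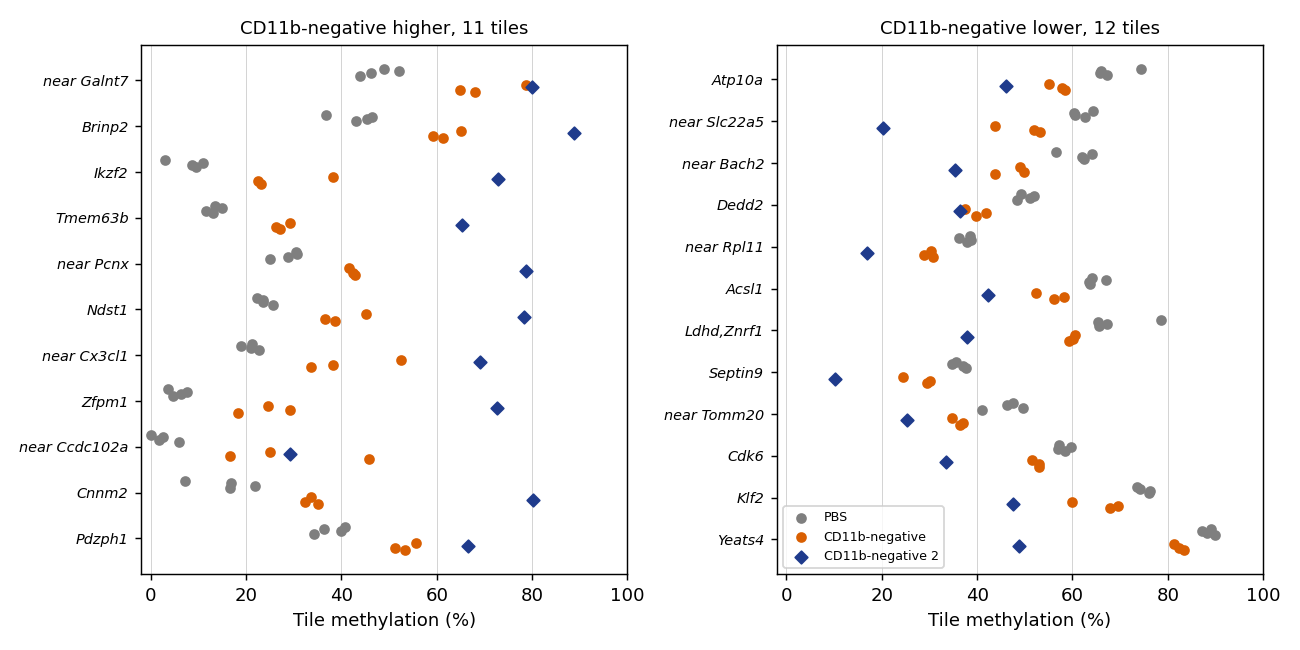
Methylation (%, x axis) of 11 tiles with a wide gap upward (left) and the 12 with the widest gap downward (right), with 1 point per library in grey for PBS, orange for CD11b-negative and a diamond for CD11b-negative 2; labels give the gene the tile lies in or near. In the Ikzf2 tile the PBS points stay at or below 10.9% and the CD11b-negative points start at 22.6%, and in the Klf2 tile the order is reversed.

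The 12 lower tiles with the widest gap had smaller differences, 10.3 to 19.7 points. The middle of a tile of Klf2, the gene of a zinc-finger factor of quiescent lymphocytes (chr8:72320001-72321000, 19 CpGs), lay 1438 bp downstream of the gene start. The tile does not hold the start itself. Its methylation was 73.5%, 74.1%, 76.3% and 76.1% in PBS and 59.9%, 47.6%, 69.6% and 67.8% in CD11b-negative. All 4 CD11b-negative libraries were lower, CD11b-negative 2 by the most. In Cdk6, a cell cycle kinase gene (chr5:3382001-3383000), the values were 57.2%, 59.7%, 57.0% and 58.3% in PBS and 51.5%, 33.4%, 53.0% and 53.0% in CD11b-negative. In Septin9, a cytoskeletal GTPase gene (chr11:117350001-117351000), they were 35.6%, 34.6%, 37.1% and 37.7% against 24.4%, 10.2%, 30.2% and 29.4%. In both, the other 3 CD11b-negative libraries lay between CD11b-negative 2 and PBS. The tile of Dedd2, which encodes a death effector domain protein, was less dependent on CD11b-negative 2 (chr7:25206001-25207000). It had 49.3%, 52.0%, 51.1% and 48.4% in PBS and 37.5%, 36.5%, 41.8% and 39.7% in CD11b-negative, a difference of -11.3 points, and -10.5 without that library. The other 8 lay in or near Atp10a, Slc22a5, Bach2, Rpl11, Acsl1, Ldhd and Znrf1, Tomm20 and Yeats4, and the adjusted p of all 12 was 0.479. The tiles in Atp10a and near Rpl11 rested on as few as 49 and 99 calls in a library.

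CD11b-negative 2 was the highest of the 8 libraries at 63.0% of tiles and the lowest at 13.0%, and it set most of the spread of its group. The median SD of a tile was 1.89 points over the 4 PBS libraries and 4.39 over the 4 CD11b-negative libraries, and 1.92 over the 3 others. The values of this library were extreme in both directions, and the following tiles were chosen for that, so they are a description. In the start tile of Otud7a (chr7:63444001-63445000, 45 CpGs), methylation was 85.2%, 69.2%, 81.9% and 74.5% in PBS, 69.1%, 80.2% and 84.4% in CD11b-negative 1, 3 and 4, and 3.96% in CD11b-negative 2. The start tile of Pdzrn3 (chr6:101377001-101378000, 39 CpGs) had 68.1% to 82.2% in the other 7 libraries and 3.50% in CD11b-negative 2. CD11b-positive 2 had 3.42% and 4.58% in these tiles, and the other CD11b-positive libraries had 28.7% to 55.9%. Within the printed promoter of Otud7a, 22 measured CpGs gave 3.42% in CD11b-negative 2 and 71.4% to 86.3% in the other 7. Those of Pdzrn3 gave 3.66% and 49.9% to 69.2% at 24 CpGs. Tiles near Ptprm, in Gm9222 and in Zfp536 had the same form, with 2.03% to 3.93% in CD11b-negative 2.

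In the opposite direction, CD11b-negative 2 had 90.7% in a tile of Gna14, a G protein gene (chr19:16439001-16440000). The other CD11b-negative libraries had 8.04%, 11.7% and 12.2% there and PBS 11.5% to 19.7%. In Irs2, the gene of an adaptor of the insulin receptor (chr8:11004001-11005000, 14 CpGs), it had 93.9%, the other CD11b-negative libraries 17.7% to 23.6% and PBS 5.73% to 26.3%. Tiles of Cdh3, Lbhd2 and Phactr1 were alike, at 90.1% to 93.0% in this library. Over all tiles, 374 were under 10% in CD11b-negative 2 and over 40% in each of the other 7 libraries, of which 263 (70.3%) lay at gene starts and 228 held 50 or more CpGs. CD11b-positive 2 was under 10% in 358 of them. In the reverse class, 81 tiles were over 80% in CD11b-negative 2 and under 30% in each of the other 7, with 5 at gene starts, and CD11b-positive 2 was over 80% in 68. The bounds of both classes were set after the values were seen. Among imprinted genes the windows of Dlk1 and Dio3, named after their values were seen, had 2% and 4.27% in CD11b-negative 2. The other 7 libraries had 53.7% to 74.5% and 48.3% to 64.7%.

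Without CD11b-negative 2, 3 tiles were called (0.00351%), all higher in CD11b-negative. The tile of Tmem63b, an ion channel gene (chr17:45684001-45685000), had 13.4%, 14.8%, 11.6% and 13.0% in PBS and 29.1%, 26.3% and 27.1% in CD11b-negative 1, 3 and 4, a difference of 14.3 points (adjusted p = 0.0459). CD11b-negative 2, which was not in this fit, had 65.4%. The tile of Cdc123, a translation factor assembly gene (chr2:5805001-5806000), had 72.2%, 77.0%, 81.0% and 71.8% against 91.0%, 87.7% and 94.0%. The tile of Grk3, a receptor kinase gene (chr5:112969001-112970000), had 88.2%, 77.2%, 85.1% and 80.7% against 94.6%, 93.0% and 93.7%. These differed by 15.4 and 10.97 points (adjusted p = 0.0459 each), and CD11b-negative 2, at 87.3% and 91.4%, lay with the others. With no minimum difference, 49 tiles had an adjusted p under 0.05, 47 higher (0.055%) and 2 lower (0.00234%), and 47 of the 49 did not overlap over all 8 libraries. Their differences ranged from 0.832 to 15.4 points in size, with a median of 3.67, and 24 had a PBS mean under 20%. These calls were not stable: edgeR and limma gave 0 tiles with an adjusted p under 0.05 (lowest 0.0921 and 0.338), with 9531 and 9461 at an unadjusted p under 0.05. In each of these tools 48 of the 49 had an unadjusted p under 0.05. Leaving out a further library gave 36 tiles (PBS 1), 22 (PBS 2), 17 (PBS 3), 1 (PBS 4), 13 (CD11b-negative 1), 579 (CD11b-negative 3) or 52 (CD11b-negative 4). Of the 49, 26, 19, 15, 1, 11, 48 and 24 were among them, in that order.

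Most of these 49 tiles lay near one end of the scale, 24 with a PBS mean under 20% and 20 over 80%. The lowest adjusted p, 0.00183, was in Abcc4, a gene of an exporter of cyclic nucleotides (chr14:118552001-118553000, 7 CpGs). It had 2.28%, 2.11%, 3.34% and 2.76% in PBS and 7.76%, 27.8%, 6.35% and 6.68% in CD11b-negative 1 to 4, and the neighbouring tile was among the 49 too. A tile in Rhd (chr4:134869001-134870000) had 2.23%, 2.39%, 2.95% and 2.75% in PBS and 7.13%, 17.5%, 5.87% and 5.74% in CD11b-negative (adjusted p = 0.00700 without CD11b-negative 2). The tile of Pik3cd, which encodes a leukocyte PI3 kinase (chr4:149676001-149677000, 21 CpGs), had 1.09%, 2.17%, 3.08% and 2.41% in PBS and 7.62%, 27.9%, 7.33% and 5.38% in CD11b-negative. All 3 tiles rose by 3.67 to 4.59 points without CD11b-negative 2, with PBS under 4%. The start tile of Slc22a3 (chr17:12507001-12508000, 41 CpGs) had 1.62%, 3.41%, 2.56% and 2.58% in PBS and 8.63%, 17.9%, 5.06% and 7.72% in CD11b-negative. The 3 measured CpGs of its printed promoter had 3.23% to 8.87% in PBS and 18.1%, 59.0%, 15.7% and 18.2% in CD11b-negative. Tap1, which encodes a peptide transporter of antigen presentation (chr17:34196001-34197000), had 1.52% to 2.92% in PBS and 5.45%, 18.3%, 5.31% and 4.72% in CD11b-negative. Zbtb46, a transcription factor gene of dendritic cells (chr2:181460001-181461000), had 1.41% to 1.91% and 5.82%, 9.95%, 3.55% and 3.64%. Tiles of Ank1, an ankyrin gene of the red cell membrane, and Blvrb, a biliverdin reductase gene, were also among the 47. The 2 lower tiles were in Yeats4 and at an end of Ccnd1, which encodes cyclin D1 (chr7:144938001-144939000). The latter had 4.74%, 3.76%, 4.46% and 5.10% in PBS and 2.09%, 1.25%, 2.23% and 2.68% in CD11b-negative. A tile far from genes on chromosome 2 (chr2:98667001-98668000) had at least 25918 calls in each library at 10 CpGs, and its place in the 49 is uncertain, since reads of several copies may be counted there.

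Gene windows, 1000 bp on each side of a gene start, differed little between the groups. Of 20665 autosomal protein-coding genes 13346 had a window with at least 3 common CpGs, 10570 at a start and 2776 at the better covered gene end, where no start was at hand. The median difference was 0.0420 points, and 84.8% of windows were under 20% in PBS. None of the 13346 was called by the quasi-binomial test with 8 libraries (0%, lowest adjusted p = 0.850, 736 with an unadjusted p under 0.05) or without CD11b-negative 2 (0%, 0.0549, 1039). Without overlap, 550 windows (4.12%) were higher and 79 (0.592%) lower. The widest gaps upward were at Pklr, a pyruvate kinase gene of liver and red cells, and at Dppa3, a germline gene. The Dppa3 window was placed at a gene end, so it may not be at the start. The window of Pklr (chr3:89135142-89137142, 4 CpGs) had 24.9%, 14.1%, 20.3% and 20.9% in PBS and 44.5%, 48.6%, 35.1% and 35.1% in CD11b-negative. Gp5, the gene of a platelet glycoprotein (chr16:30309781-30311781, 5 CpGs, as few as 57 calls), had 1.40%, 3.00%, 4.10% and 3.10% in PBS and 26.7%, 28.1%, 9.86% and 9.47% in CD11b-negative. In both, CD11b-negative 1 was close to CD11b-negative 2 and the others lay nearer to PBS. The 12 gene windows named for their gaps also included Tinagl1, Aox1 and Il25 upward and Alox12b, Cstb, Scimp, Kcnh1, Tnfrsf19 and Col1a2 downward. Those of Il25, Cstb and Scimp were placed at gene ends too. Downward, Col1a2 had 4.23%, 6.53%, 6.75% and 5.54% in PBS and 3.56%, 3.57%, 3.42% and 3.14% in CD11b-negative, and all its measured CpGs lie in the printed promoter.

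Among 17 gene lists, 0 members were called, and the list of erythroid and megakaryocyte genes held the most windows without overlap. Of its 22 genes 10 had a window, and in 5 of these each CD11b-negative library was above each PBS library, against 4.12% of all windows. The list was chosen with earlier results of these data known, so this contrast is a description only. The median difference of the 10 was 5.67 points (1.97 without CD11b-negative 2), beside 0.0420 and 0.0450 over all windows. The window of Rhd (chr4:134863536-134865536, 8 CpGs) had 4.69%, 10.4%, 13.4% and 9.85% in PBS and 24.7%, 62.8%, 20.3% and 17.0% in CD11b-negative (adjusted p = 0.850, and 0.317 without CD11b-negative 2). The window of Epor (chr9:21962576-21964576, 7 CpGs) had 3.45%, 2.91%, 3.90% and 1.44% in PBS and 11.2%, 34.0%, 8.52% and 10.5% in CD11b-negative (adjusted p = 0.850 and 0.363). Both genes were low in PBS, higher in each CD11b-negative library and highest in CD11b-negative 2. The values of their printed promoters are no second observation, since those CpGs are part of the same windows. There Epor had 1.10% to 4.19% in PBS and 13.9%, 39.7%, 8.82% and 14.0% in CD11b-negative, on as few as 79 calls. Rhd had 3.02% to 10.1% and 21.3%, 59.8%, 15.6% and 13.9%. Itga2b, a platelet integrin gene, had 1.02% to 3.17% in PBS and 3.63% to 16.9% in CD11b-negative. Pf4, a platelet chemokine gene, had 3.03% to 4.848% and 4.851% to 22.6%, so that its groups nearly met. Nfe2, a globin and platelet transcription factor gene, had 71.8% to 77.6% and 78.0% to 93.5%. Ermap, another blood group gene, had 4.87%, 10.4%, 6.68% and 10.3% in PBS and 17.6%, 63.5%, 17.3% and 9.69% in CD11b-negative, so that its groups overlapped. The remaining members, Klf1, Tal1, Tfrc and Ank1, differed by -0.763 to 0.415 points.

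**Figure D5:**
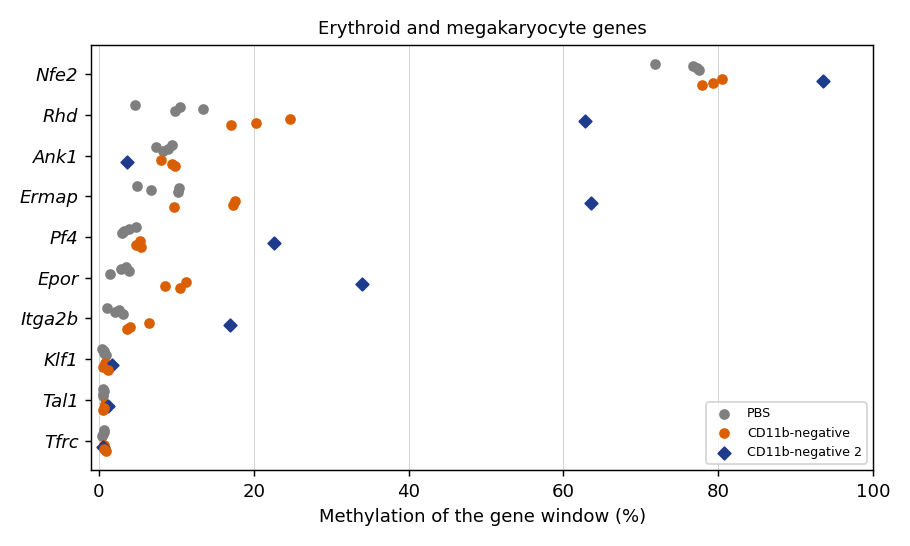
Methylation (%, x axis) of the 10 measured gene windows of the erythroid and megakaryocyte list, with 1 point per library in grey for PBS, orange for CD11b-negative and a diamond for CD11b-negative 2. In Rhd, Epor, Itga2b, Pf4 and Nfe2 all CD11b-negative points lie right of all PBS points, and the diamond lies farthest right.

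In the other lists few windows separated the groups, and over all windows 4.12% were higher and 0.592% lower. In the germline list 4 of 20 measured windows were higher without overlap (Mael, Sohlh2, Zfp42 and Rpl10l, by 2.02 to 3.16 points), with a list median of 2.94 points (1.18 without CD11b-negative 2). The germline windows were highly methylated in PBS, as Sohlh2, the gene of a germ cell factor, with 89.2% to 91.0% against 91.7% to 94.6%. In the stem cell and leukaemia list 2 of 26 were higher, Hoxa7, a homeobox gene, and Lyl1. Hoxa7 had 7.45%, 10.4%, 9.85% and 9.42% in PBS and 13.8%, 40.4%, 14.9% and 14.3% in CD11b-negative. Without overlap there was 1 higher window each in the lists of Tlr9 and NF-kB signalling (Nfkb1, 1 of 21), tumour suppressors methylated in leukaemia (Cdkn2a, 1 of 22) and imprinted genes (Phlda2, 1 of 21), by 0.345 to 0.831 points. A single window in lists of this size is near the share of all windows. There was 1 lower window each in the interferon-stimulated list (Irf9, 1 of 10, -3.28 points) and the stromal and endothelial list (Col1a2, 1 of 13). No window separated the groups in the lists of antigen presentation (15 measured), monocytes and macrophages (9), dendritic cells (10), neutrophils (4), the Stat3 pathway and its targets (24), DNA methylation machinery (20), T and NK cells (10), B cells (4) and housekeeping genes (15). Their medians ranged from -0.50 points (dendritic cells) to 4.93 (neutrophils), and from -0.33 to 0.23 without CD11b-negative 2.

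The start windows of Stat3, Socs3, Dnmt3a and Dnmt3b were nearly unmethylated in all 8 libraries, while Dnmt1 and Tlr9 had no window. The window of Stat3, the target of the decoy (chr11:100938540-100940540, 54 CpGs), had 0.612%, 0.486%, 0.703% and 0.582% in PBS and 0.539%, 0.465%, 0.573% and 0.573% in CD11b-negative. Socs3, a feedback inhibitor of that pathway, had 0.587% to 0.848% and 0.594% to 0.724%. Dnmt3a had 0.502% to 0.725% and 0.539% to 0.666%, and Dnmt3b 0.494% to 0.713% and 0.484% to 0.904%. In all 4 genes the groups overlapped. Dnmt3l, a cofactor of the de novo enzymes chosen after its values were seen, had a far higher level, 53.0%, 57.1%, 49.4% and 49.6% in PBS and 60.7%, 88.2%, 59.3% and 52.9% in CD11b-negative, also with overlap. Irf8 (chr8:120735358-120737358, 52 CpGs) had 5.63%, 4.17%, 6.52% and 5.44% in PBS and 4.84%, 2.19%, 4.31% and 5.14% in CD11b-negative, with CD11b-negative 2 the lowest (difference -1.32 points, and -0.673 without it). The 24 measured CpGs of its printed promoter had 0.928% to 3.46% in PBS and 0.711% to 3.92% in CD11b-negative. Cebpa, Kit, Cbfb and Gata2, genes of myeloid stem and progenitor cells, stayed under 5% in all 8 libraries. At the ends of Spi1, Csf1r and Ciita the levels were 63.5% to 90.9%, and CD11b-negative 2 was the highest in each.

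Tiles of the same genes, starts included, separated the groups in 5 cases. Of the 20 genes listed by name, 19 had tiles, 95 in all, of which 4 were higher without overlap and 1 lower, where 10.2% and 0.394% of all tiles were. The share of higher tiles in these genes was thus below that of all tiles. Many of the 95 lay at gene starts, however. There 2.86% to 6.23% of all tiles were higher without overlap, depending on their CpGs, so the lower share is not particular to these genes. CD11b-negative 2 was the highest library in 57 of the 95. A tile in Stat3 (chr11:100891001-100892000, 5 CpGs) had 3.73%, 11.2%, 10.5% and 10.3% in PBS and 26.7%, 60.3%, 16.4% and 16.2% in CD11b-negative. A tile in Kit, the stem cell factor receptor gene (chr5:75608001-75609000, 6 CpGs), had 4.21%, 6.86%, 13.6% and 11.4% in PBS and 26%, 75.4%, 19.2% and 18.96% in CD11b-negative. Both had an adjusted p of 0.479, and 0.215 and 0.187 without CD11b-negative 2. Gata2, a transcription factor gene of blood stem cells, held 2 higher tiles and 1 lower. The higher tile at chr6:88200001-88201000 (22 CpGs) had 17.5%, 24.9%, 24.99% and 24.4% in PBS and 36.2%, 58.0%, 32.5% and 31.5% in CD11b-negative. The lower tile at chr6:88204001-88205000 (18 CpGs) had 85.0%, 82.4%, 82.3% and 82.4% in PBS and 76.3%, 72.2%, 79.1% and 80.7% in CD11b-negative. In Runx1, whose product partners that of Cbfb, 0 of 18 tiles separated the groups (10.2% of all tiles were higher and 0.394% lower), and CD11b-negative 2 was the highest library in 13.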

How the data were processed

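The deposited files hold counts of methylated and unmethylated calls per CpG cytosine and strand, 1 file per library, not normalised. The submitters' processing notes name the build mm10, methylKit 1.20.0, Bismark, cutadapt 2.7 and Trim Galore 0.6.4. Their settings, any removal of duplicate reads, and bisulfite conversion: not given in the sources used here. Of the mitochondrial calls 0.437% to 0.533% were methylated in PBS. The shares were 0.721%, 0.518%, 0.660% and 0.631% in CD11b-negative 1 to 4 (exact permutation p = 0.0571). CD11b-negative 1 and 4 had only 1248 and 1427 such calls. The part of these mitochondrial shares in small differences at low levels was not tested. CD11b-negative 1 and 4 also had the fewest CpGs with 10 or more calls (1165994 and 1217980). The other libraries compared had 1337697 to 1448516. What this means for the results was not tested either. Strands were summed, and autosomal CpGs with 10 or more calls in all 8 libraries (median 86 calls) were kept. Tiles and gene windows pool the counts of their CpGs. Starts came from RefSeq promoters, and for genes with several the 5′-most was used. A tile at a gene start overlaps the 1000 bp on each side of a start, or of either gene end where no start was at hand.

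Library values were compared with exact permutation tests (two-sided). Tiles and windows were tested with a quasi-binomial logistic model and an F test, with Pearson dispersion moderated by empirical Bayes within bins of mean methylation (5%, 20%, 80% and 95%) and not under 1, and Benjamini-Hochberg adjustment over all of them. The step was tested on simulated data with independent noise in each tile and library. The simulation held no shift of a whole library, so it cannot show how the step behaves with a library such as CD11b-negative 2. Only the 8 libraries entered the reported fits, and an alternative added the CD11b-positive ones. Alternatives were edgeR 4.0.16 and limma 3.58.1 (R 4.3.3), other filters and tile sizes, further terms and leaving out each library. Python 3.11.15 with numpy 2.4.6, scipy 1.17.1 and pandas 2.3.3 was used.

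Tiles and windows were named by rule: called ones, the widest gaps between groups that do not overlap (12 tiles and 6 windows each way), 5 tiles each way where CD11b-negative 2 is farthest from the other 7, 1 member per gene list and direction, and 20 listed genes. One of the higher tiles is not reported here. The comparison, gene lists and rules were chosen with earlier results of these data known. The other genes named from the tiles that passed without CD11b-negative 2 were chosen after their values were seen.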

Additional observations from a re-analysis of the deposited data

Results flagged for a closer look

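In a group of 4, a library was singled out where its gap to the nearest other library, as a ratio to the range of the group, exceeded Dixon's 95% critical value, which chance alone does in about 1 of 20 groups. CD11b-negative 2 was singled out in its group for the mean over CpGs (ratio 0.864), the median tile (0.847), the share of tiles at 20% to 80% (0.900) and over 80% (0.897), and the calls on Y genes (0.867). It was also singled out in 3 of 9 classes of tiles (0.837 to 0.842) and 7 of 19 autosomes (0.830 to 0.873). Among the tiles with the widest gaps it was singled out in Tmem63b (0.928), near Pcnx (0.968), Cnnm2 (0.942), near Rpl11 (0.862), at Ldhd and Znrf1 (0.945), Cdk6 (0.921) and Yeats4 (0.944). In the PBS group PBS 2 at Acsl1 (0.833) and PBS 1 at Ldhd and Znrf1 (0.854) were singled out. Over all tiles the criterion was met in 5.15% for PBS and 13.2% for CD11b-negative.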

How the results depend on the processing

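The mean over CpGs of the 8 libraries kept its direction under every alternative run, and without CD11b-negative 2 it turned only when weighted by depth (-1.19 points). It was 1.73 to 1.86 points with other minimum calls (5 or 20) and with the deepest CpGs left out, and 0.541 weighted by depth (exact permutation p = 0.800). Leaving out a library gave 0.938 to 2.13 points, where p cannot go below 0.0571. Whether the replicate numbers pair the libraries is not known. Deviations of same-numbered libraries from their group means correlated by 0.435, 0.771, 0.323 and -0.127 across tiles. PBS 1 correlated best with CD11b-negative 4 (0.683) and by -0.737 with CD11b-negative 2. That library pulls the mean of its group, from which the deviations are taken, so these correlations cannot decide the pairing. As a replicate block, sign flips gave 1.77 points with exact p = 0.125, the smallest possible, and 0 called tiles with 8 libraries and without CD11b-negative 2, where 0 of the 49 tiles at any size passed. The tile mean was 2.53 points (exact permutation p = 0.0286) with 5 or more CpGs per tile. Leaving out a library moved the share at 20% to 80% between -11.1 and -2.17 points and the share over 80% between 2.93 and 11.6. It gave 9853 to 16789 higher tiles without overlap (14513 and 15440 without CD11b-negative 3 and 4, and the most without PBS 2) and 524 to 1036 lower ones (the fewest without PBS 3 or CD11b-negative 1), with fewer libraries to separate, and 0 to 3 called tiles.

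Without CD11b-negative 2, the 3 called tiles became 6 with at least 20 calls, 1 with 5 or more CpGs per tile, 49 with no minimum difference, and 0 with the other 11 libraries in the fit, with edgeR and with limma. In those 3 fits 0 tiles passed at any size, in place of 49. The Y share as a further term gave 113 called tiles with 8 libraries, and 130 called and 822 at any size without CD11b-negative 2. Leaving out a further library gave 0 to 92 called and 1 to 579 at any size. The causes of these shifts were not tested. No gene window, class or autosome passed under any alternative run for them. Depth limits tiles of few CpGs most, some of which rest on fewer than 100 calls per library, and copies of a molecule can be counted more than once.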
